A study of Canis lupus familiaris with 6 samples.

Results

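The miR-183 cluster is a group of 3 miRNA genes that lie side by side on dog chromosome 14. Its members, cfa-miR-183, cfa-miR-96 and cfa-miR-182, were chosen by their names on the array, with every probe and spot that carries those names, and make up 3 of the 289 canine miRNAs measured. The samples were canine mammary cancer cells of the lines CMT-U309, P114 and CMT-U27, separated on a flow sorter by staining for the surface protein Sca1 (stem cell antigen 1). Each line gave 1 Sca1+ and 1 Sca1- sample, so there were 3 samples per fraction, and the labels call the Sca1+ cells cancer stem cells and the Sca1- cells the control. The sample descriptions place both P114 fractions in culture with macrophages and the other lines in mono-culture, while the titles and sources of P114 do not mention macrophages. No genotype, allele or drug treatment is given for any line. The samples numbered as replicates are the 3 lines, so the spread behind each p-value is between samples of different lines. Nothing says how the cultures called biological replicates were kept apart, so technical spread may be part of it.

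In mammals the cluster is transcribed as 1 long primary RNA that is cut into separate hairpins and then into mature miRNAs, each of which lowers the stability and translation of mRNAs that pair with its seed, the bases near its 5′ end. The cluster is best known in the hair cells, photoreceptors and other sensory cells of mouse and human, where mutations in the seed of miR-96 cause hearing loss. It is also made in epithelia, and human breast and prostate carcinomas often hold more of it than normal tissue. In human breast cancer cells miR-96 and miR-182 target the transcription factor FOXO1, and in human prostate cells the cluster lowers zinc uptake through transporters of the SLC39 family.

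The members were measured by 9 probes, which are shown because the agreement between probes of different length is the internal check on each level. A probe pairs with the 3′ part of its miRNA, and longer probes reach further towards the 5′ end. The probe sequences are given 5′ to 3′ as the scanner files hold them, in lower case, and capitals mark the bases that a probe has beyond the shortest probe of the same miRNA. The shortest probe of miR-183 maps to chr14:10022409-10022424 and the longest to chr14:10022406-10022424.
miR-183, 17 bases: agtgaattctaccagtg
miR-183, 18 bases: agtgaattctaccagtgC
miR-183, 19 bases: agtgaattctaccagtgCC
miR-183, 20 bases: agtgaattctaccagtgCCA
miR-96, 21 bases: agcaaaaatgtgctagtgcca
miR-96, 22 bases: agcaaaaatgtgctagtgccaA
miR-182, 17 bases: agtgtgagttctaccat
miR-182, 18 bases: agtgtgagttctaccatT
miR-182, 19 bases: agtgtgagttctaccatTG

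All coordinates are those of the probe mappings in the scanner files (build canFam2, + strand). The longest probe of miR-96 maps to chr14:10022630-10022650 and that of miR-182 to chr14:10026589-10026606. For all 582 probes of the array with 1 mapping, the mapped interval was 1 base shorter than the probe. The mappings of miR-183 and miR-96 lay 205 bases apart, miR-182 followed 3938 bases after miR-96, and the whole group spanned 4201 bases. In the RefSeq table of the UU_Cfam_GSD_1.0 assembly all 3 genes were found, again next to each other and inside the span of LOC102151305, an uncharacterised non-coding gene. The protein-coding genes next to them there were ZC3HC1 and UBE2H on one side and NRF1, a transcription factor for mitochondrial and respiratory genes, on the other. Intron or exon positions were not assigned.

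The longest probes of the members share short stretches. Those of miR-183 and miR-182 share a run of 8 bases, and those of miR-183 and miR-96 a run of 7 bases, shown in capitals.
miR-183 against miR-182: agtgaaTTCTACCAgtgcca
miR-182 against miR-183: agtgtgagTTCTACCAttg
miR-183 against miR-96: agtgaattctaccAGTGCCA
miR-96 against miR-183: agcaaaaatgtgctAGTGCCAa
The probes of miR-96 and miR-182 share no run longer than 4 bases. Whether an RNA of one member binds a probe of another was not tested.

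The 6 arrays lay on 1 slide and divided into 3 bright and 3 dim arrays. Arrays B1, B2 and B3 detected 89 to 111 miRNAs with summed total gene signals of 69282 to 70794 intensity units, whereas D1, D2 and D3 detected 9 to 39 miRNAs with sums of 319.5 to 3228. A bright array is one with over 50 detected miRNAs. The scanner files and the deposited value table assign the arrays to samples differently: 2 columns of the table equal the scanner file of the same sample and 4 equal that of another. By scanner file, the Sca1+ samples were B1 for CMT-U309, D3 for P114 and D1 for CMT-U27, with B2, B3 and D2 as the Sca1- samples of these lines in that order. By value table, the Sca1+ samples were D2 for CMT-U309, B1 for P114 and D1 for CMT-U27, with D3, B3 and B2 as their Sca1- samples. B1 was a Sca1+ sample and B2 and B3 were Sca1- samples in both readings, so the bright arrays carry a comparison of fractions that does not turn on the assignment. B1 lay in slide row 1 and both B2 and B3 in slide row 2, so fraction and slide row cannot be told apart on the bright arrays. In bulk RNA, fewer cells of a type and less RNA per cell cannot be told apart. The labels name the dye Cy5 while each file holds 1 green channel, which was not settled.

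All 3 members were detected on B1, B2 and B3 and on no dim array, and each was higher on B1, the Sca1+ array, than on either Sca1- array. The total gene signal, the scanner software's summary over the probes of a miRNA, is given with the software's own error. Whether the same probes count in it on every array was not tested. Its ratios between arrays may thus not be like for like. For miR-183 it was 160.4 ± 9.97 on B1 (Sca1+), against 33.6 ± 4.68 on B2 and 57.5 ± 5.06 on B3 (Sca1-). For miR-96 it was 622.7 ± 44.9 on B1 (Sca1+), against 222.2 ± 17.8 on B2 and 276 ± 20.7 on B3 (Sca1-). The Sca1+ value stood above both Sca1- values for both miRNAs, by more than the software errors. The signal of miR-182 was 233 ± 17.5 on B1 (Sca1+), against 73.2 ± 7.99 on B2 and 71.7 ± 7.12 on B3 (Sca1-). The Sca1- arrays had nearly equal values for miR-182, and B1 again lay apart from both. On D1, D2 and D3 each member was not detected, where the software writes a signal of 0.1. Levels of different miRNAs are not compared with each other here, since each probe has its own response.

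**Figure D1:**
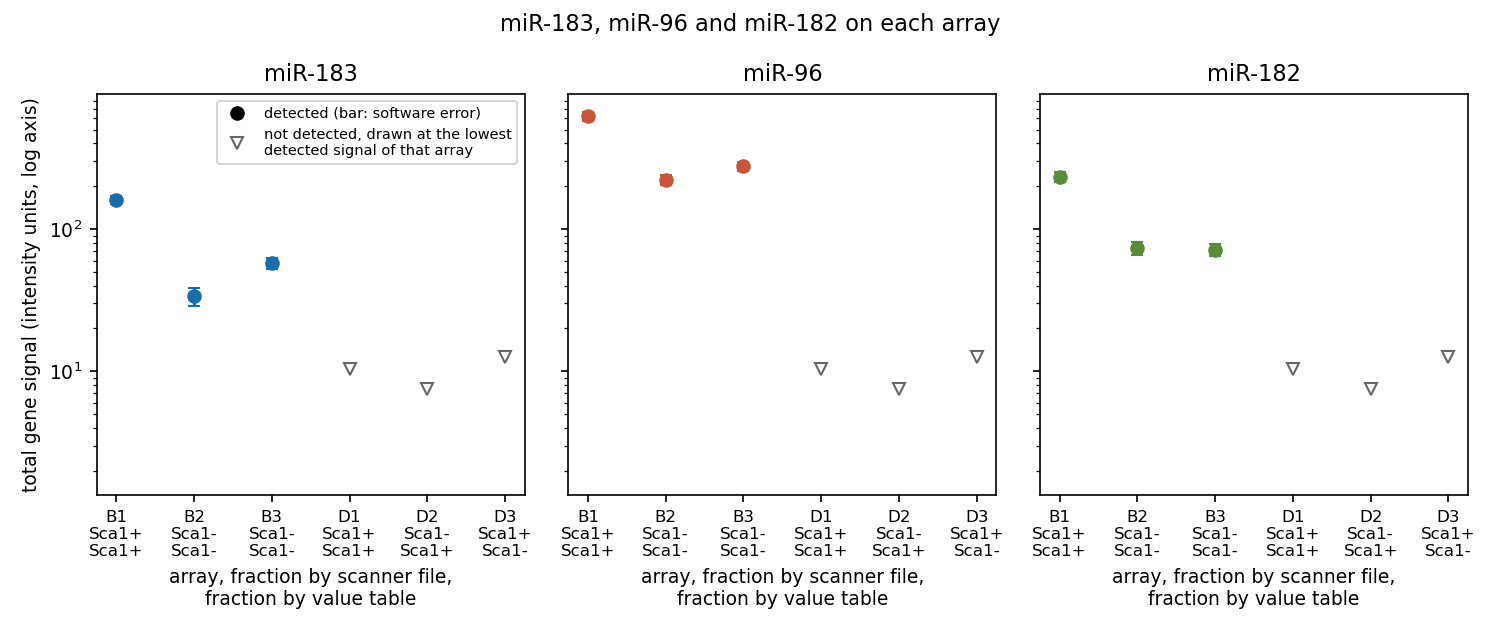
Total gene signal (intensity units, log axis) of miR-183, miR-96 and miR-182 on each of the 6 arrays, labelled with the fraction by scanner file above the fraction by value table. Filled points are detected values with the software error as bars, and open triangles mark arrays without detection, drawn at the lowest detected signal of that array. All 3 miRNAs were highest on B1, at 160.4, 622.7 and 233, and none was detected on D1, D2 or D3.

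Expressed as ratios, miR-183 was 4.78-fold higher on B1 than on B2 (3.54 to 6.44, from 1.96 software errors on each side) and 2.79-fold higher than on B3 (2.26 to 3.44). For miR-96 the ratios were 2.80 (2.27 to 3.46) over B2 and 2.26 (1.84 to 2.77) over B3. The ratios of miR-182 were 3.18 (2.45 to 4.12) over B2 and 3.25 (2.54 to 4.14) over B3. These intervals cover the error within an array and not the spread between samples, which 1 Sca1+ array cannot show. Probes well above background on all 3 arrays gave smaller ratios for miR-183, 3.72 and 3.45 over B2 and 2.73 and 2.71 over B3. The only such probe of miR-182 gave 2.73 over B2 and 2.82 over B3. The intervals do not take in this difference between measures, and 3.45 lies below that of miR-183 over B2. By total gene signal the 2 Sca1- arrays differed in miR-183, with B3 over B2 at 1.71 (1.24 to 2.37). Its probes differed less. The 19-base probe averaged 24.5 on B2 and 33.4 on B3, and the 20-base probe 25.4 and 32.5. For miR-96 B3 over B2 was 1.24 (1.001 to 1.54) by total gene signal. For miR-182 it was 0.980 (0.734 to 1.31), which lies within the software error. By total gene signal the order was B1, B3, B2 for miR-183 and miR-96, whereas B2 and B3 were neighbours without a clear order for miR-182.

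As a share of the summed signal of the array, which removes differences in that sum only, the order was the same. miR-183 took 0.231% on B1 (Sca1+), against 0.0474% on B2 and 0.0820% on B3 (Sca1-). miR-96 took 0.899% on B1, against 0.314% on B2 and 0.393% on B3. miR-182 took 0.336% on B1, against 0.103% on B2 and 0.102% on B3. The summed signals of the bright arrays were so close that shares and signals gave similar ratios. Of these sums, miR-21 alone held 18172 on B1, against 32139 on B2 and 31945 on B3. A share thus does not remove differences in brightness among the other miRNAs.

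The single probes gave the same order of arrays. Of the 9 probes, 8 had every spot on B1 above every spot on B2 and B3, which held for 105 of all 656 probes of the array (16%) and for 74 of the 166 probes of miRNAs detected on B1, B2 and B3 (44.6%). On all 9 the spots of B2 and B3 overlapped, as they did on 75.3% of those 166 probes. The probe outside the first count was the 17-base probe of miR-183, the shortest of its set, which had no spot well above background on B1, B2 or B3. Its means were 2.51 ± 1.47 on B1 (Sca1+), against -2.44 ± 1.74 on B2 and -1.31 ± 1.82 on B3 (Sca1-; SD over spots). With 1 base more, the 18-base probe of miR-183 averaged 57.5 ± 2.99 on B1, against 13.2 ± 1.17 on B2, where 0 of 10 spots were well above background, and 18.1 ± 2.07 on B3. With the full set of capitals shown above, the 20-base probe averaged 87.9 ± 7.03 on B1, against 25.4 ± 3.75 on B2 and 32.5 ± 2.91 on B3. The 19-base and 20-base probes were well above background on all 3 arrays in most spots, with ratios of 3.72 and 3.45 over B2 and of 2.73 and 2.71 over B3.

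Both probes of miR-96 were bright. The 22-base probe averaged 264 ± 12.8 on B1 (Sca1+), against 95.2 ± 4.74 on B2 and 116 ± 6.78 on B3 (Sca1-). The 21-base probe averaged 195.6 ± 12.8 on B1, against 70.04 ± 5.24 on B2 and 85.5 ± 6.72 on B3. Their ratios were nearly the same, 2.77 and 2.79 over B2 and 2.28 and 2.29 over B3. The 19-base probe, which stood for miR-182 in the fits, averaged 181.9 ± 10.101 on B1, against 66.7 ± 5.85 on B2 and 64.5 ± 3.58 on B3, ratios of 2.73 and 2.82. It was the only probe of miR-182 well above background in most spots on all 3 arrays. The 17-base probe averaged 24.96 ± 2.74 on B1, against 5.30 ± 1.52 on B2 and 5.10 ± 1.78 on B3, where it had 0 spots well above background, so no ratio is given for it. On the 18-base probe 2 of 13 spots were well above background on B2 and 6 of 11 on B3, and its ratios are left out too.

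**Figure D2:**
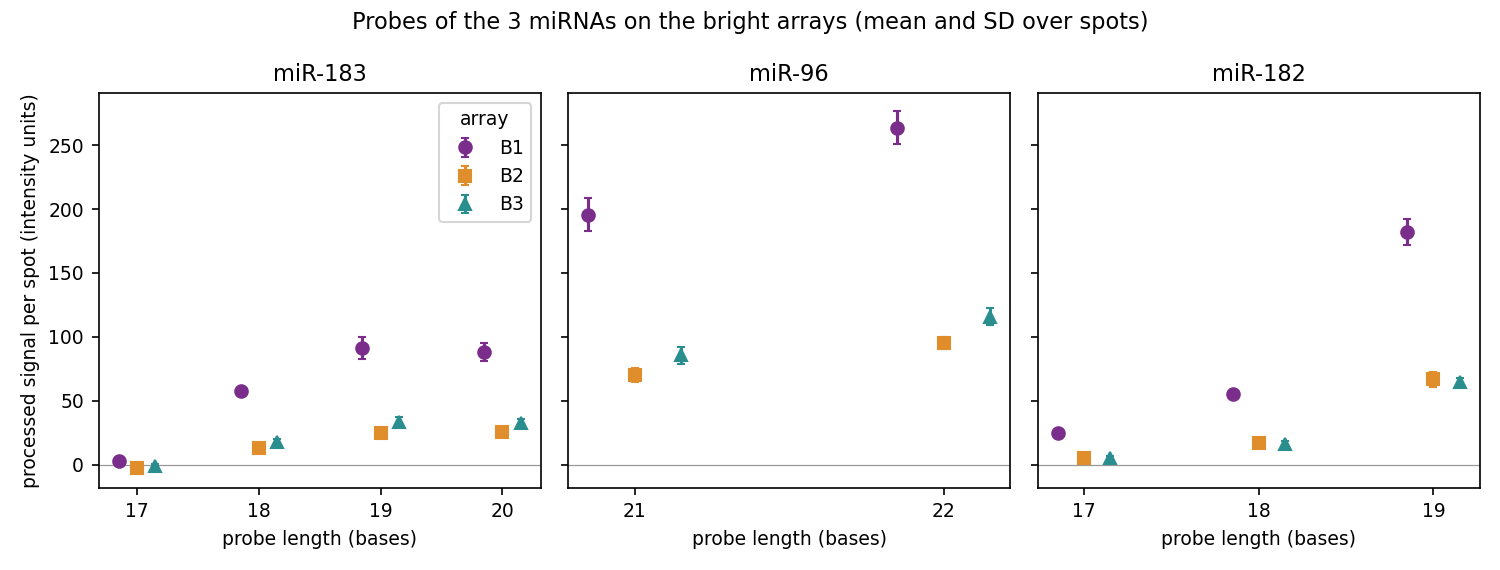
Processed signal per spot (intensity units, mean and SD over spots of a probe) of each probe of the 3 miRNAs against its length in bases, on B1 (Sca1+), B2 and B3 (Sca1-). B1 is highest on every probe above background, while the 17-base probe of miR-183 lies near 0 on all 3 arrays.

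Many miRNAs were brighter on B1 than on the other bright arrays, so the members are read against that background. Of the 78 miRNAs detected on B1, B2 and B3, 51 were above both Sca1- arrays on B1 (65.4%), and 14 were at least 2-fold above both (17.9%), which included all 3 members. The log2 ratio of B1 over the mean of B2 and B3 was 1.87 for miR-183, 1.68 for miR-182 and 1.33 for miR-96, where the median over the 78 miRNAs was 0.51. In order of this ratio miR-183 came at rank 3, miR-182 at rank 5 and miR-96 at rank 9. miR-185 (2.61), miR-425 (2.21) and miR-130b (1.77) were the other miRNAs in the first 5. The members thus stood in the upper part of the distribution, without being set apart from all other miRNAs. The ranks rest on total gene signal, whose ratios exceeded those of the probes above background on all 3 arrays for miR-183 and miR-182.

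**Figure D3:**
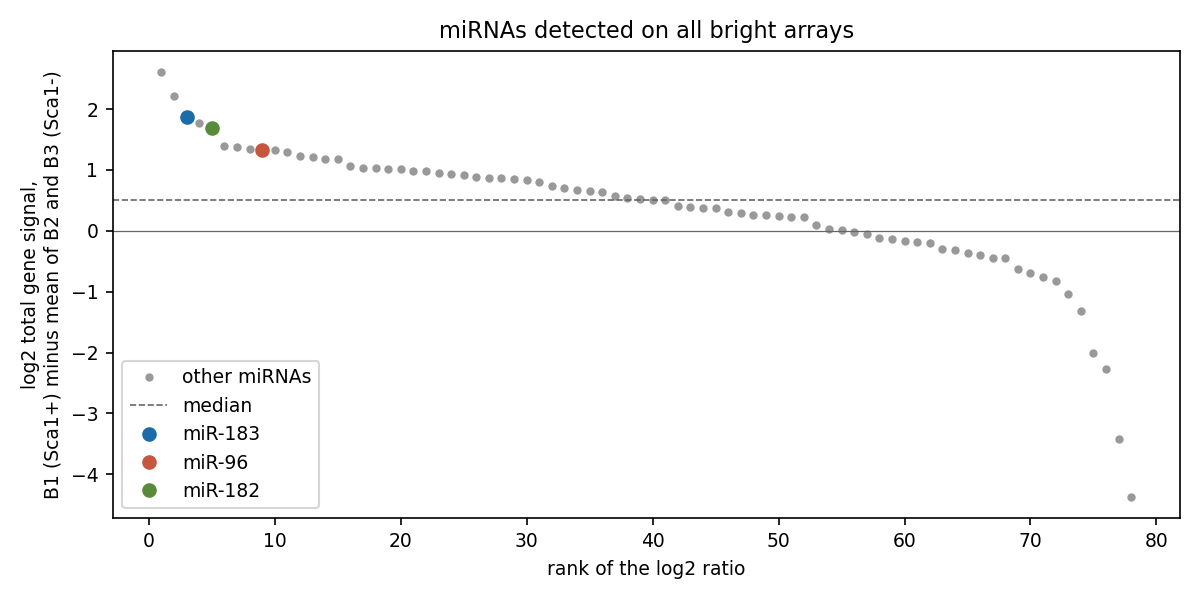
Log2 ratio of total gene signal, B1 (Sca1+) minus the mean of B2 and B3 (Sca1-), for the 78 miRNAs detected on all 3 bright arrays, in descending order. The dashed line is the median (0.51), and miR-183 (1.87), miR-182 (1.68) and miR-96 (1.33) lie in the upper part.

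The test of this comparison, limma on the scaled log2 signal of B1 against B2 and B3, did not call any member after adjustment over the 90 miRNAs tested. Here each array was scaled by the 75th percentile of 122 probes that were well above background on all 3 arrays. The median log2 difference over the 90 miRNAs was 0.18 with that scaling. On that scale miR-183 stood at 6.29 on B1 (Sca1+), against 4.52 on B2 and 5.35 on B3 (Sca1-). miR-182 stood at 7.29 on B1, against 5.98 on B2 and 6.30 on B3, and miR-96 at 7.83 on B1, against 6.49 on B2 and 7.14 on B3. B1 remained the highest array for each. The limma log2 difference was 1.36 (SE 0.48) for miR-183, a fold of 2.56 with a 95% interval of 0.940 to 6.97 and an adjusted p of 0.202. It was 1.15 (SE 0.31) for miR-182, a fold of 2.22 with a limma interval of 1.15 to 4.30 and an adjusted p of 0.159. It was 1.01 (SE 0.41) for miR-96, a fold of 2.01 with a limma interval of 0.845 to 4.79 and an adjusted p of 0.255. The fit called 4 of the 90 miRNAs (4.44%), all lower on B1, and 50 of 90 had a difference above 0 (55.6%). By size of the difference miR-183 ranked 7th, miR-182 9th and miR-96 11th of 90. The fit has 1 residual degree of freedom, so its spread comes from how far B2 and B3 differ. Limma moderates this spread with that of all miRNAs tested. B2 and B3 are of different lines in both readings, so the p-values rest on a difference between lines as well. The same spread is assumed for the single Sca1+ array.

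With normexp background correction, each of the 3 members passed as higher on B1, with limma log2 differences of 0.96 for miR-183 (adjusted p = 0.00284), 0.86 for miR-182 (adjusted p = 0.00724) and 0.74 for miR-96 (adjusted p = 0.0177). That setting called 54 of 90 miRNAs (60%), 43 of them higher on B1, so the members shared the call with most miRNAs. Limma gave the 3 members the same SE of 0.27 there, a spread pooled over the miRNAs tested and not that of each member. Over the 10 alternatives tested, the log2 difference ran from 0.90 to 3.54 for miR-183, from 0.69 to 1.53 for miR-182 and from 0.55 to 1.33 for miR-96. Limma's adjusted p ran from 0.00284 to 0.613 for miR-183, from 0.00724 to 0.809 for miR-182 and from 0.0177 to 0.881 for miR-96. The difference was above 0 for each member under each of these alternatives, which all reuse B1, B2 and B3. The value-table assignment and the changed detection filters could not move the log2 differences of the members, so they add no support. The highest value of miR-183, 3.54, came from the mean of all probes, which takes in the 17-base probe that was not above background on any array. When the scaling was done anew over B1 and 1 Sca1- array, the differences shifted from those of the levels above. Against B2 alone, the Sca1- array of the same line by scanner file, they were 1.46 for miR-183, 1.11 for miR-182 and 1.13 for miR-96. Against B3 alone, the Sca1- array of the same line by value table, they were 1.00, 1.05 and 0.74 in the same order. With 1 array on each side these have no test.

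On the dim arrays none of the 344 spots kept for the 9 probes was well above background, and probe means lay between -2.999 and 5.70 intensity units. The highest was the 22-base probe of miR-96 on D1, at 5.70 ± 2.06 (SD over spots). The dim arrays had little signal of any miRNA, so the absence of detection sets only a loose limit. Of the 78 miRNAs detected on all bright arrays, 38 were detected on no dim array (48.7%), as the members were. If a member had held the same share of the summed signal as on a bright array, its signal would have exceeded the lowest detected signal of a dim array in 4 of 27 combinations of member, dim array and share. On D1, where the lowest detected signal was 10.4, miR-96 would have reached 29.01 at the share of B1 and 12.7 at that of B3, but 10.13 at that of B2. miR-182 would have reached 10.8 on D1 at the share of B1, and miR-183 no more than 7.47. On D2, with a lowest detected signal of 7.51, miR-96 would have reached 11.5 at the share of B1. On D3, with a lowest detected signal of 12.6, no member would have exceeded 2.87. D3 thus could not show the members at any share seen elsewhere, and D1 bears mainly on miR-96: a share as high as on B1 or B3 would have been above the lowest signal it detected.

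**Figure D4:**
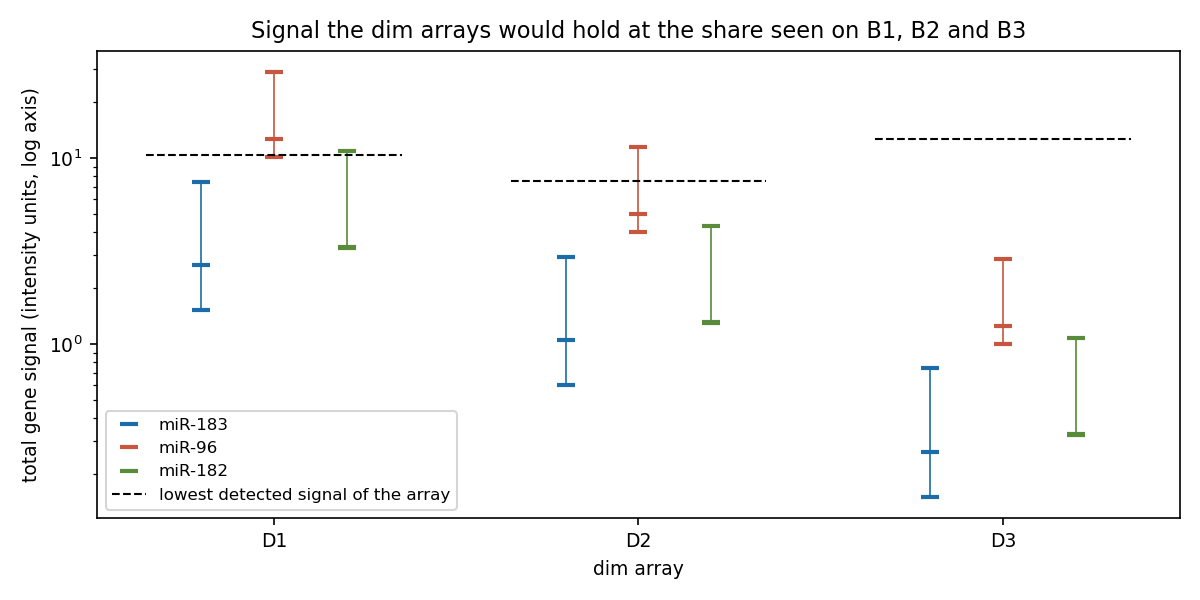
Total gene signal (intensity units, log axis) that miR-183, miR-96 and miR-182 would have on D1, D2 and D3 at the shares of summed signal seen on B1, B2 and B3 (3 ticks per miRNA). The dashed line is the lowest detected signal of each array. The signals of miR-96 at the shares of B1 and B3 lie above it on D1, and all of D3 lies below it.

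By line and fraction, the pattern of detection follows the assignment of the arrays. By scanner file, the members were detected in Sca1+ and Sca1- cells of CMT-U309, in neither fraction of CMT-U27, and in Sca1- but not Sca1+ cells of P114. By value table, they were detected in neither fraction of CMT-U309, in both fractions of P114, and in Sca1- but not Sca1+ cells of CMT-U27. In each reading the members were detected in 1 of 3 Sca1+ samples and 2 of 3 Sca1- samples. These counts equal those of the bright arrays in each fraction.

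No member passed the threshold between fractions or lines in the limma fits over all 6 arrays, which called 0 of 80 miRNAs (0%) in each comparison. For Sca1+ over Sca1- within lines 0 miRNAs had an unadjusted p under 0.05 as well. There were 9 such miRNAs for CMT-U309 over CMT-U27, 0 for P114 over CMT-U27, 0 for P114 over CMT-U309 and 4 for the difference among lines. Limma's adjusted p for Sca1+ over Sca1- was 0.994 for each member. For CMT-U309 over CMT-U27 limma gave an adjusted p of 0.360 for miR-182, 0.675 for miR-183 and 0.713 for miR-96. For P114 over CMT-U27 it was 0.994 for each. For P114 over CMT-U309 it was 0.790 for miR-182 and miR-183 and 0.853 for miR-96. The fitted differences are not given, since values below background have no order, and their sign turned in 35 of 159 values over the alternatives. A bound on the fold against arrays without detection was set at the lowest signal well above background there. It came out under 1 for every member and pair of lines in the main setting with the 75th percentile scaling, so no fold is given for that setting. With the floor at the detection limit, the values of P114 over CMT-U27 by scanner file were 1.44 for miR-96 and 1.08 for miR-182. The others stayed under 1. Without scaling between arrays the bounds carry the difference in total brightness. On that basis, by scanner file, CMT-U309 was at least 3.67-fold higher than CMT-U27 in miR-183, at least 12.3-fold in miR-96 and at least 8.57-fold in miR-182. By value table, P114 was at least 4.17-fold higher than CMT-U309 in miR-183, at least 13.7-fold in miR-96 and at least 8.48-fold in miR-182. In the other 2 pairs with an undetected line, the brighter line itself had 1 array without detection. The values there average in that array, so they are not lower bounds. By scanner file they were 0.0555 for miR-183, 0.872 for miR-96 and 0.0169 for miR-182 for P114 over CMT-U27, all under 1, with 1 of the 2 P114 arrays detecting the members. By value table the value of CMT-U27 over CMT-U309 was 1.74 for miR-96, with 1 of the 2 CMT-U27 arrays detecting it, and under 1 for miR-183 and miR-182. In each of these pairs every bright array lay in the brighter line, so line and brightness cannot be told apart.

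Leaving out D3, the dimmest array and by scanner file the Sca1+ sample of P114, limma called 8 of 80 miRNAs for CMT-U309 over CMT-U27 (10%). miR-182 was among them (adjusted p = 0.0127), and it also passed among the 7 called for the difference among lines (8.75%, adjusted p = 0.0295). miR-183 and miR-96 passed in no alternative of these comparisons, where their lowest adjusted p was 0.168 and 0.142 for CMT-U309 over CMT-U27. By scanner file both arrays of CMT-U309 were bright and both of CMT-U27 dim, so line and brightness cannot be told apart there. miR-182 was not detected on D1 or D2, the arrays of CMT-U27, so its call rests on values below background. Scaled over all arrays, its log2 level was -6.65 on D1 and -4.13 on D2. The lowest signals well above background there were 4.34 and 6.30. With no array left out, the fitted miR-182 difference for these lines turned sign under normexp correction and with the floor at the detection limit. The call is not read as a difference between lines. In the value-table reading, limma called 24 of 80 miRNAs for P114 over CMT-U309 (30%), 14 for CMT-U309 over CMT-U27 (17.5%) and 14 among lines (17.5%). No member was among them, with adjusted p for P114 over CMT-U309 of 0.0984 for miR-182, 0.111 for miR-183 and 0.467 for miR-96.

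Which miRNAs followed the members most closely over the bright arrays depended on the scale used. Likeness was taken as the largest difference in log2 total gene signal over B1, B2 and B3 after centring each miRNA on its mean, among the 37 other miRNAs with the same detection calls on all 6 arrays. It is a description over 3 points that share the slide and the scan. Among the members the largest difference was 0.29 between miR-96 and miR-182, 0.41 between miR-183 and miR-96, and 0.46 between miR-183 and miR-182. For miR-96 the closest was miR-186, at 118.9 on B1, 41.2 on B2 and 53.7 on B3 (0.04), followed by miR-148b (0.20) and miR-101 (0.25). For miR-182 the closest was miR-130b, at 70.8 on B1, 21.7 on B2 and 19.8 on B3 (0.08), followed by miR-191 (0.26) and miR-96 (0.29). For miR-183 these were miR-186 (0.37), miR-96 (0.41) and miR-148b (0.46). On the scaled level of the brightest probe, 5 of these 9 pairings came out again, and the members moved up. There the closest to miR-183 were miR-96 (0.23), miR-182 (0.32) and miR-185 (0.40), and miR-186 and miR-148b were no longer among them. The closest to miR-96 were miR-182 (0.21), miR-183 (0.23) and miR-101 (0.25), and those to miR-182 were miR-191 (0.20), miR-96 (0.21) and miR-130b (0.22).

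Other miRNA clusters give a scale for how far the listed members of a cluster differed on these arrays. The array reads a mature miRNA, which may come from more than 1 locus, as with miR-24, listed in 2 clusters. A span is thus not necessarily that of 1 primary transcript. Of 12 others listed, 10 had at least 2 members detected on B1, B2 and B3. The log2 ratios of total gene signal of miR-183, miR-182 and miR-96 spanned 0.54. In the other clusters the span ran from 0.15 to 1.19, narrower in 5 and wider in 5. These clusters had 2 to 5 members detected on B1, B2 and B3. A span can only widen as members are added, so the spans are not on a like scale. The median ratio of the cluster was 1.68, and among the 10 others only the pair of miR-191 and miR-425 had a higher one, at 1.77. Of the 10 medians, 6 lay above 0.

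**Figure D5:**
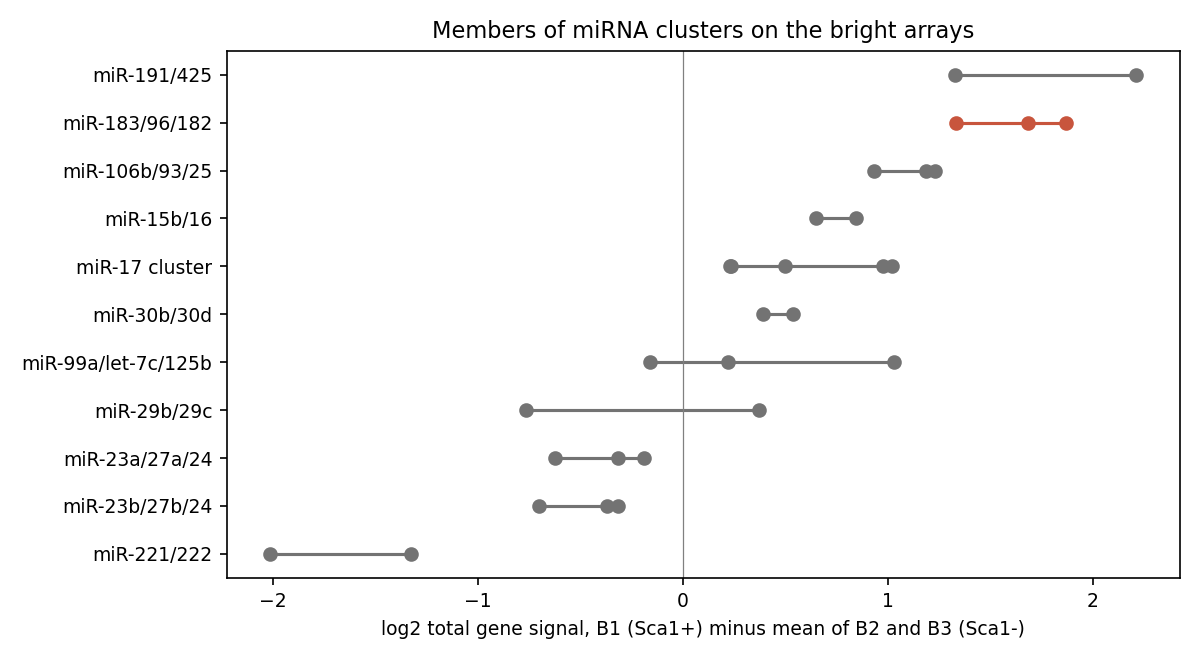
Log2 ratio of total gene signal, B1 (Sca1+) minus the mean of B2 and B3 (Sca1-), for members of the miR-183 cluster and 10 other miRNA clusters, 1 point per miRNA with a line over each cluster. The members of the miR-183 cluster lie between 1.33 and 1.87, and miR-24 appears in both clusters that hold it.

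miR-1271, which carries the seed of miR-96 but is made from another locus, was detected on B1 alone, at 37.2. It was not detected on the other 5 arrays. B1 detected the most miRNAs, 111 against 91 on B2 and 89 on B3. Others, such as miR-200c and miR-9, were also detected on B1 alone. The detection of miR-1271 is therefore not read as a link to miR-96.

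Markers of cell types also differed between the arrays, in different directions for different lists. Of 7 epithelial miRNAs, 5 were detected on B1 (Sca1+; miR-200c, miR-141, miR-429, miR-203 and miR-205, summed signal 5129), against 1 on B2 (miR-141, 28.9) and 0 on B3 (Sca1-). The dim arrays detected 0 on D1, 1 on D2 (23.9) and 0 on D3. miR-200a and miR-200b, which mark epithelium, were detected nowhere. Of 5 mesenchymal miRNAs, 1 was detected on B1 (miR-140, 19.9), against 2 on B2 (635) and 2 on B3 (623), and none on a dim array. The bright Sca1- arrays thus held the members without most epithelial markers of a mammary carcinoma. Of 5 leukocyte and macrophage miRNAs, 3 were detected on B1 (948), 2 on B2 (219), 2 on B3 (149) and miR-223 alone on each dim array (59.6 to 65.7). The erythroid miR-451 was detected on B2 (18.1) and D2 (39.4), the nerve-enriched miR-9 on B1 (51.3), and no endothelial or muscle miRNA on any array. The part of other cell types in the levels of miR-183, miR-96 and miR-182 was not tested.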

How the data were processed

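The deposited scanner files hold spot intensity. Per the file headers they were written by Agilent Feature Extraction 10.10.1.1, whereas the submitters' processing notes name version 10.7.3.1. Per the file headers, the software subtracted background from the processed intensity and did not scale arrays to each other. The files also hold the total gene signal and a detection flag per miRNA. The deposited value table holds the same total gene signals for 311 features, as linear intensity (relative tolerance 0.0001, column median 0.1).

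From these, values of 0 or less were raised to the smallest positive intensity of their array before log2 was taken, and arrays were scaled by the 75th percentile of probes well above background on all arrays of the fit (10 probes for 6 arrays, 122 for the bright arrays). Control and outlier-flagged spots were left out. A miRNA took the value of its brightest probe. miRNAs detected on at least 3 of 6 arrays (80) or 2 of 3 bright arrays (90) were tested with limma 3.58.1 in R 4.3.3, with line and fraction as terms over 6 arrays (2 residual degrees of freedom) and Benjamini-Hochberg adjustment at 0.05. The data.table package (1.17.8) read the files. The line pairs the samples, since both fractions were sorted from it. The procedure was tested on simulated data.

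Named miRNAs are the members, the 3 most alike miRNAs per member, miRNAs sharing a member's seed, the cell type markers and the listed clusters. miR-185, miR-425 and miR-21 were named after their values were seen. The members, lists and the limit for bright arrays were chosen with earlier results of these data known. The number of arrays limits the precision.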

Additional observations from a re-analysis of the deposited data

How the results depend on the processing

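For Sca1+ over Sca1- within lines, limma called 0 miRNAs under every alternative that could be run, including no replicate block (0), slide row as a term (0) and leaving out each sample (0 to 0). For the difference among lines the count was 0, against 1 with the total gene signal, 14 by value table and 0 to 7 when leaving out each sample. For CMT-U309 over CMT-U27 it was 0, against 14 by value table and 0 to 8 when leaving out each sample. For P114 over CMT-U27 it was 0, against 1 with the total gene signal, and for P114 over CMT-U309 it was 0, against 24 by value table. On the bright arrays it was 4, against 54 with normexp background correction, 11 with scaling over all probes, 0 with quantile scaling, 10 with a floor at the detection limit, 2 with the mean of all probes, 0 with no filter (289 tested) and 8 with miRNAs detected on all 3 arrays (78 tested). The causes of these shifts were not tested. Detection of the members on 9 pairs of member and array was the same by probe spots (9), and 5 of 9 likeness pairings recurred on the scaled level. Slide row could not be fitted by value table, and with a bright array left out the members were not tested. Few arrays and dim signal limit these results.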
